A study of Mus musculus with 9 samples.

Results

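The genes described here are 10 regulators of Notch signalling and of secretory cell fate in the intestinal crypt, found in the count table by matching its Ensembl gene identifiers to their symbols. All 10 of them were present among the 29288 genes of the table, and all 10 passed the filter on low counts that kept 18933 genes for testing. They are the receptors Notch1 and Notch2, the ligands Dll1, Dll4 and Jag1, the Notch target Hes1, and the secretory lineage factors Atoh1, Gfi1, Spdef and Foxa3. Bulk RNA-seq was done on intestinal epithelial cells (IECs) of the crypts of the proximal small intestine, sorted as live EpCAM+ CD45- CD31- Ter119- cells from 9 female wild-type (WT) C57BL/6J mice, which the study's methods describe as 7 to 10 weeks old. The glycolipid α-galactosylceramide (αGalCer) is shown to natural killer T (NKT) cells by the antigen-presenting molecule CD1d and activates them. Of the mice, 3 were given PBS by intraperitoneal injection and sampled at 18 h (control), 3 were given αGalCer (2 µg) by the same route and sampled at 18 h (18h-αGal), and 3 were given αGalCer and sampled at 72 h (72h-αGal). A library came from a single mouse. Since PBS mice were sampled at 18 h alone, αGalCer and time of sampling cannot be told apart in any comparison of 72h-αGal with control. The comparisons ask whether the transcripts that set the balance between stem, absorptive and secretory fates in the crypt moved when NKT cells were activated in vivo.

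Notch signalling works between touching cells. A ligand of the Delta or Jagged family on one cell binds a Notch receptor on its neighbour, the receptor is cut by ADAM metalloproteases and γ-secretase, and the freed intracellular domain joins the DNA-binding protein RBPJ and a Mastermind co-activator to switch on target genes. In the crypt, Notch1 and Notch2 on stem and progenitor cells receive Dll1 and Dll4 from secretory neighbours, Hes1 is switched on, and Hes1 in turn represses Atoh1. Cells that escape the signal express Atoh1 and become secretory cells, with Gfi1, Spdef and Foxa3 acting further along the goblet and Paneth cell paths.

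The starts of the genes were searched for letters that Notch effectors are known to read. Promoter windows are printed for Notch1, Notch2 and Dll4, which with Hes1 had no overlap between both αGalCer groups, and for Atoh1, the gene that Hes1 represses. RefSeq windows on GRCm38.p6, running from 250 bases before to 50 bases after the start site, matched 9 of the 10 genes, in 11 windows of 300 bases. Hes1 had no window, so its promoter was not searched for any of the motifs. They were searched on both strands for the RBPJ core TGGGAA, the N-box CACNAG that HES proteins bind and the E-box CAGCTG that ATOH1 binds. Letters in capitals mark a match to any of these motifs on either strand, and each window reads 5′ to 3′ on the strand of its gene.
Notch1 (chr2:26503773-26504072, minus strand): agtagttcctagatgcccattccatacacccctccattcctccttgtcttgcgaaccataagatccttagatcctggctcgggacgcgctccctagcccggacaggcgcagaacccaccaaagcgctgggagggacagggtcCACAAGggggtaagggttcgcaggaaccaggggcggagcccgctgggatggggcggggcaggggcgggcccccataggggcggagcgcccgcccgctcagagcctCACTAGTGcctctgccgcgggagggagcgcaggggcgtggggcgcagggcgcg
Notch2 (chr3:98013288-98013587, plus strand): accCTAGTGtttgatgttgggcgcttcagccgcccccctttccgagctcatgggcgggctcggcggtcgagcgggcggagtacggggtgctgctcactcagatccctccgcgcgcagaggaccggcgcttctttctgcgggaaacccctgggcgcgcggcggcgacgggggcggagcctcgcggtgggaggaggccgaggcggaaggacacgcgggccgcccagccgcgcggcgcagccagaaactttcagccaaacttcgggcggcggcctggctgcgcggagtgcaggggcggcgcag
Dll4 (chr2:119325534-119325833, plus strand): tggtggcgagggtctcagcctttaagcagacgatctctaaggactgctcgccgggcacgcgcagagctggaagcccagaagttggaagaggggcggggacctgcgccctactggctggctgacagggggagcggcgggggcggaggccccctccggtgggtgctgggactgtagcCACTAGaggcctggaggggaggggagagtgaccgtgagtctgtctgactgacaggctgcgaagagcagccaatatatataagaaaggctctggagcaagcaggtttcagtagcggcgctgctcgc
Atoh1 (chr6:64728875-64729174, plus strand): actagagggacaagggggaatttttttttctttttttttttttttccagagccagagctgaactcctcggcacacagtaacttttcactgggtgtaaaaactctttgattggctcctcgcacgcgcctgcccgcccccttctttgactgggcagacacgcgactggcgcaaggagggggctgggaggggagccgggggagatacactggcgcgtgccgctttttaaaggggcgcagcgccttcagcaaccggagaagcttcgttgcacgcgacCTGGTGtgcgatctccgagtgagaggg
The capitals in these windows are all N-box matches. Notch1 held 3 of them, beginning at positions -108, -3 and -1 (the start site being position 0), of which the last pair lie on opposite strands and share letters. Notch2 and Dll4 held 1 each, at -247 and -75, and Atoh1 held 1 at 23. An N-box was present in 6 of the 11 windows, against 42.5% of all 32851 windows of the same length. The RBPJ core was present in 1 of the 11 (Spdef) against 25.6% of all windows, and the E-box in 2 (Jag1 and Dll1) against 16.3%. Both Gfi1 windows and 1 of the Dll1 windows held no match. These are matches of letters only, and factor binding was not measured.

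The libraries held between 8887861 counts (control replicate 3) and 32722293 counts (control replicate 1), and in each of the 9 pairs of replicates the counts differed beyond counting error (chi-square over its degrees of freedom from 13.1 to 42.0). Values of a gene are given as the deposited normalised count, which is the raw count divided by the size factor of its library, and marker levels as CPM, the count relative to the library total after scaling by TMM factors, which centre the fold changes of most genes between libraries on 0. The 8 epithelial marker genes summed to between 4647 and 6522 CPM in every library, led by Cdh1 and Epcam. Marker lists of non-epithelial lineages each summed to less than 60 CPM. The 12 lymphocyte genes summed to between 1.91 and 7.98 CPM with Cd3d and Cd2 among those listed at 0, the 11 measured myeloid genes to between 28.7 and 56.8 CPM with S100a9 at 0, and the 12 endothelial genes, which matter because endothelium also uses Dll4, Jag1 and Notch1, to between 26.3 and 44.7 CPM with 7 of them at 0 in at least 1 library. The highest sums were 39.0 CPM in control, 42.3 CPM in 18h-αGal and 44.7 CPM in 72h-αGal for the endothelial genes, and none of their 7 tested members was called in any comparison. Stromal sums, led by Vim and with Lum at 0, ran from 21.3 to 31.1 CPM in control, from 31.7 to 34.7 CPM in 18h-αGal and from 9.88 to 13.0 CPM in 72h-αGal, without overlap, and of 5 tested genes 1 was called higher at 18 h and 1 lower at 72 h against 18 h. Vim alone had a mean of 18.7 CPM, against 2.29 CPM for the next stromal gene, Pdgfrb. Of the stromal genes, 9 were at 0 in at least 1 library. The median log2 fold change of the 5 tested genes went the other way from the sums. It was -1.88 at 18 h and 0.98 at 72 h against 18 h.

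Levels of the 10 genes were first ordered within each group, as CPM per kilobase of annotated exon, the only scale here on which genes can be set side by side. In control, Hes1 stood highest at 22.4 ± 4.46 (SD, n = 3) and Gfi1 lowest at 1.41 ± 0.50, and the order between them ran Foxa3, Notch1, Dll1, Atoh1, Dll4, Spdef, Notch2 and Jag1. Neighbours in this order overlapped from library to library, with the exception of Jag1 and Gfi1. In 18h-αGal, Foxa3 (15.6 ± 6.00) and Hes1 (15.6 ± 2.28) shared the top, and Notch1 stood sixth by its mean, at 9.15 ± 2.77 against 13.5 ± 2.98 in control. In 72h-αGal, Hes1 stood at 26.9 ± 1.35, and its lowest library (25.6) was above the highest Foxa3 library (17.0). There, Dll4 was also clear of Notch2, Notch2 of Jag1 and Jag1 of Gfi1. Per exon length, Notch1 exceeded Notch2 in each of the 9 libraries, by a ratio between 1.58 and 2.05, and Dll4 was below Dll1 in each of them, at a ratio between 0.558 and 0.962.

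**Figure D1:**
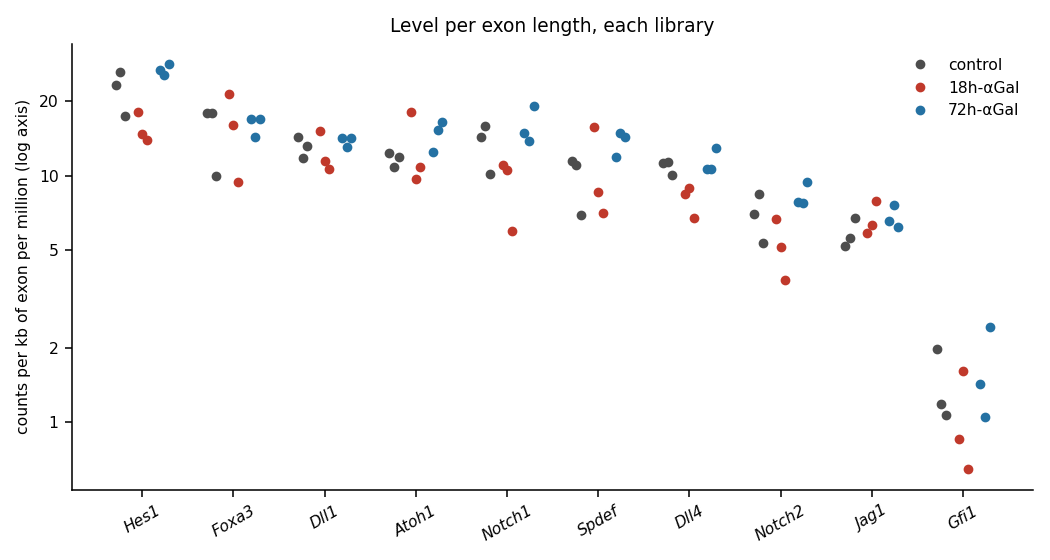
Level of each of the 10 genes in each library, as CPM per kilobase of exon on a log axis, with control in grey, 18h-αGal in red and 72h-αGal in blue. Hes1 stands highest in control and 72h-αGal (means of 22.4 and 26.9) and Gfi1 lowest in all 3 groups.

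At 18 h after αGalCer, none of the 10 genes passed the test against control (edgeR quasi-likelihood test, Benjamini-Hochberg adjusted p under 0.05 over all genes tested), whereas 5.96% of all tested genes did. Without adjustment, 3 of the 10 had a p under 0.05, namely Hes1, Dll4 and Notch1, each with a lower mean than control, against 20.8% of all genes. The median log2 fold change of the 10 genes was -0.25, beside -0.03 for all tested genes, with 6 values below 0 and 4 above. By DESeq2 and without the filter on low counts, the count of called genes was 1 instead of 0, in both cases Hes1. In bulk samples such as these, fewer cells of a type and less RNA per cell cannot be told apart, which holds for every difference described below.

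At 72 h, 0 of the 10 genes were called against control by edgeR or by DESeq2, beside 0.0264% of all genes (5 genes), and 0 of the 10 had an unadjusted p under 0.05, beside 5.94% of all genes. All 10 log2 fold changes were above 0, between 0.06 and 0.47, with a median of 0.23 beside 0.0022 for all genes. Between both αGalCer groups, 2 of the 10 genes were called, Hes1 and Notch2, each higher at 72 h, beside 10.2% of all genes called and 4.18% called higher. Without adjustment 4 of the 10 had a p under 0.05, beside 24.3% of all genes. All 10 log2 fold changes of 72h-αGal against 18h-αGal were above 0, with a median of 0.45 beside 0.05 for all genes, and 4 genes had no overlap between the groups, each higher at 72 h, beside 16.6% of all genes. The comparisons share libraries (control in both comparisons against it, 18h-αGal in the first and the last), so their signs are not independent of each other. The count of 2 was 4 by DESeq2 and 4 without control replicate 3, the smallest library. It was 1 when control replicate 1, 18h-αGal replicate 2 or 3, or any 72h-αGal replicate was left out, and 1 when the counts were thinned to the smallest library.

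**Figure D2:**
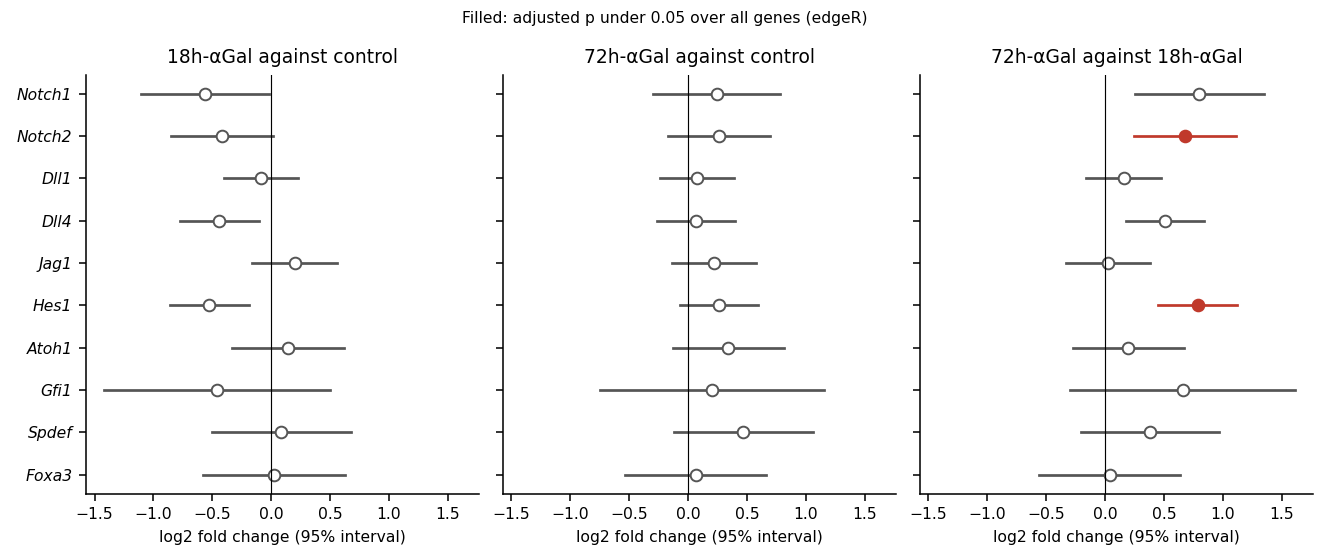
Log2 fold change of each of the 10 genes in the 3 comparisons, as points with 95% confidence intervals, filled red where the edgeR adjusted p over all genes was under 0.05. Only Hes1 (0.79) and Notch2 (0.68) in 72h-αGal against 18h-αGal are filled. At 18 h against control 6 values lie below 0, those of Notch1, Notch2, Dll1, Dll4, Hes1 and Gfi1.

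Hes1 (ENSMUSG00000022528, chr16:29882134-29886643 on GRCm39, plus strand) encodes the basic helix-loop-helix repressor that carries the Notch signal. Its normalised counts were 1524, 1715 and 1160 in control, 1176, 957 and 916 in 18h-αGal, and 1748, 1669 and 1823 in 72h-αGal. All 3 libraries at 72 h were above all 3 at 18 h, while at 18 h the highest library just exceeded the lowest control, replicate 3. Hes1 was 1.72-fold higher at 72 h than at 18 h, or by 0.79 ± 0.16 (SE) on the log2 scale (edgeR adjusted p = 0.0060). This call held in all 15 alternatives, with values between 0.72 and 0.91 and adjusted p no higher than 0.0343. Against control, Hes1 had a log2 fold change of -0.52 ± 0.16 at 18 h (edgeR adjusted p = 0.0611) and 0.26 ± 0.15 at 72 h (adjusted p = 0.881). The 18 h value passed the threshold in 4 of 15 alternatives, namely DESeq2, no filter on low counts, without control replicate 3 (-0.67, adjusted p = 0.0081) and without 18h-αGal replicate 1 (-0.65, adjusted p = 0.0483).

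Notch1 (ENSMUSG00000026923, chr2:26347915-26406675, minus strand) and Notch2 (ENSMUSG00000027878, chr3:97920800-98057677, plus strand) encode the receptors of the crypt. Notch1 had normalised counts of 3957, 4380 and 2834 in control, 2998, 2882 and 1654 in 18h-αGal, and 4095, 3784 and 5217 in 72h-αGal. Notch2 had 1530, 1840 and 1174 in control, 1434, 1114 and 831 in 18h-αGal, and 1694, 1682 and 2025 in 72h-αGal. For both receptors every 72 h library was above every 18 h library, replicate 3 was the lowest library of the control and of the 18h-αGal group, and control overlapped both αGalCer groups. Notch2 was 1.60-fold higher at 72 h than at 18 h (log2 fold change 0.68 ± 0.20, edgeR adjusted p = 0.0477), a call lost in 8 of 15 alternatives, where values ran down to 0.51. Notch1 was 1.74-fold higher by its means in the same comparison (0.80 ± 0.24) but did not pass the test (adjusted p = 0.0677), and was called in 3 of 15 alternatives, among them DESeq2 (adjusted p = 0.0045). Against control, the log2 fold changes at 18 h were -0.56 ± 0.24 for Notch1 (adjusted p = 0.224) and -0.42 ± 0.20 for Notch2 (adjusted p = 0.257), and at 72 h 0.24 ± 0.24 (adjusted p = 0.945) and 0.26 ± 0.20 (adjusted p = 0.904).

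Dll4 (ENSMUSG00000027314, chr2:119156170-119166443, plus strand), which encodes one of the Delta ligands that maintain crypt stem cells, had normalised counts of 861, 865 and 777 in control, 636, 677 and 520 in 18h-αGal, and 810, 813 and 975 in 72h-αGal. All 3 libraries at 18 h were below all control libraries and below all 72 h libraries, which makes Dll4 the only one of the 10 genes without overlap at 18 h, beside 12.3% of all genes lower without overlap. The log2 fold change at 18 h was -0.44 ± 0.16 with an edgeR adjusted p of 0.115, and it did not pass the test in any of 15 alternatives. Between 18 h and 72 h it was 0.51 ± 0.16, with an adjusted p of 0.0514, called by DESeq2 (0.0347) and without control replicate 3 (0.0365). At 72 h against control it was 0.07 ± 0.16 (adjusted p = 0.983).

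Dll1 (ENSMUSG00000014773, chr17:15587276-15597134, minus strand), the other Delta ligand of the crypt, had normalised counts of 1383, 1130 and 1284 in control, 1434, 1092 and 1031 in 18h-αGal, and 1362, 1246 and 1347 in 72h-αGal, so that the 3 groups overlapped. Its log2 fold change at 18 h was -0.08 ± 0.15 with a 95% confidence interval from -0.40 to 0.23 (edgeR adjusted p = 0.814). Jag1 (ENSMUSG00000027276, chr2:136923373-136958693, minus strand), a Jagged ligand, had 597, 644 and 789 in control, 670, 724 and 918 in 18h-αGal, and 754, 877 and 701 in 72h-αGal, again with overlap throughout. Its log2 fold change at 18 h was 0.20 ± 0.17 (interval from -0.16 to 0.56, adjusted p = 0.563), above 0 where those of Dll4 and Dll1 were below it. The difference between the ligands was not tested. Between 18 h and 72 h, Dll1 had a value of 0.16 ± 0.15 (adjusted p = 0.573) and Jag1 one of 0.02 ± 0.17 (adjusted p = 0.954).

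**Figure D3:**
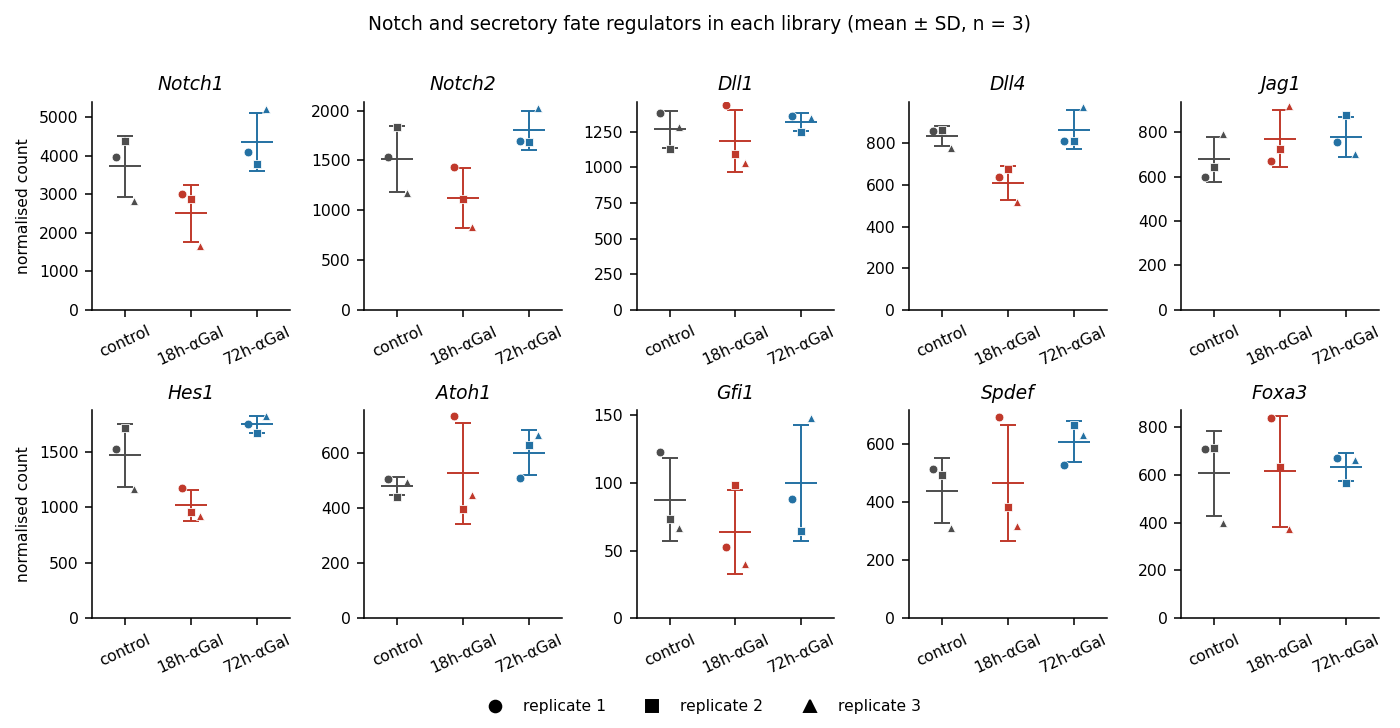
Normalised count of each of the 10 genes in each library, by group, with marker shapes for replicates 1 to 3 and bars for mean ± SD (n = 3). For Notch1, Notch2, Dll4 and Hes1 all 72h-αGal libraries sit above all 18h-αGal libraries, while the other 6 genes overlap between these groups.

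Among the secretory factors, Atoh1 (ENSMUSG00000073043, chr6:64706109-64708229, plus strand), the basic helix-loop-helix activator that commits cells to the secretory fate, had normalised counts of 506, 442 and 494 in control, 736, 395 and 448 in 18h-αGal, and 511, 629 and 667 in 72h-αGal. The 18h-αGal group held both the highest and the lowest library of all 9, and every 72 h library was above every control library. At 18 h the log2 fold change was 0.15 ± 0.22 (interval from -0.33 to 0.62, edgeR adjusted p = 0.777), and without 18h-αGal replicate 1 it was -0.19. At 72 h it was 0.34 ± 0.22 against control (adjusted p = 0.885) and 0.20 ± 0.22 against 18h-αGal (adjusted p = 0.650). The ratio of Atoh1 to Hes1, per exon length, was 0.528, 0.410 and 0.678 in control, 0.996, 0.658 and 0.779 in 18h-αGal, and 0.465, 0.600 and 0.582 in 72h-αGal. All 3 ratios at 18 h were above all 3 at 72 h, and control overlapped with 18h-αGal through replicate 3. This ratio was computed with the levels of Hes1 known and is given without a test.

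Spdef (ENSMUSG00000024215, chr17:27933326-27947929, minus strand), an ETS factor of goblet and Paneth cell maturation, had normalised counts of 513, 492 and 311 in control, 693, 383 and 317 in 18h-αGal, and 527, 663 and 629 in 72h-αGal. All 72 h libraries were above all control libraries, and the 18 h libraries spread over the range of both. With Atoh1 it made 2 genes higher at 72 h than in control without overlap, beside 6.36% of all genes, and its log2 fold change there was 0.47 ± 0.28 (edgeR adjusted p = 0.881). Foxa3 (ENSMUSG00000040891, chr7:18747209-18757471, minus strand), a forkhead factor of goblet cells, had 708, 712 and 399 in control, 837, 633 and 375 in 18h-αGal, and 670, 568 and 663 in 72h-αGal, with overlap in every comparison. Gfi1 (ENSMUSG00000029275, chr5:107864523-107873902, minus strand), a zinc finger repressor that keeps goblet and Paneth precursors from the enteroendocrine path, had 123, 73.1 and 66.6 in control, 52.3, 98.8 and 40.0 in 18h-αGal, and 88.0, 64.5 and 148 in 72h-αGal. Its raw counts of 28 to 209 leave a counting error of 18.9% in the thinnest library, and its log2 fold change at 18 h, -0.46 ± 0.45, had an interval from -1.42 to 0.50. At 18 h the values were 0.09 ± 0.28 for Spdef and 0.02 ± 0.28 for Foxa3 (adjusted p = 0.905 and 0.975, edgeR), and both turned below 0 without control replicate 3 or without 18h-αGal replicate 1.

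Replicates within a group spread unevenly over the 10 genes. In 18h-αGal the coefficient of variation was 48.7% for Gfi1, 43.2% for Spdef, 37.6% for Foxa3, 34.8% for Atoh1, 29.6% for Notch1 and 26.8% for Notch2, compared with 13.8% for Hes1 and 13.3% for Dll4. In 72h-αGal it ran from 4.40% for Hes1 to 17.3% for Notch1 in 9 of the genes and was 42.9% for Gfi1. Atoh1, Spdef and Foxa3 were highest in 18h-αGal replicate 1 of all libraries in that group, and so was the sum of 12 goblet cell markers, 18382 CPM against 7288 and 6509 CPM in replicates 2 and 3. In control, replicate 3 was lowest for Notch1, Notch2, Dll4, Hes1, Gfi1, Spdef and Foxa3, and it also had the lowest stem marker sum (1217 CPM) and the highest enterocyte marker sum (19863 CPM) of the control group. In 18h-αGal, replicate 3 was also lowest for Notch1, Notch2, Dll4 and Hes1. Its stem sum was the lowest (532 CPM) and its enterocyte sum the highest (15880 CPM) of that group. In 72h-αGal, replicate 3 was highest for Notch1, Notch2, Dll4 and Hes1. There it had the highest stem sum (2711 CPM) and the lowest enterocyte sum (5257 CPM). The part of these markers in the results was not tested.

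**Figure D4:**
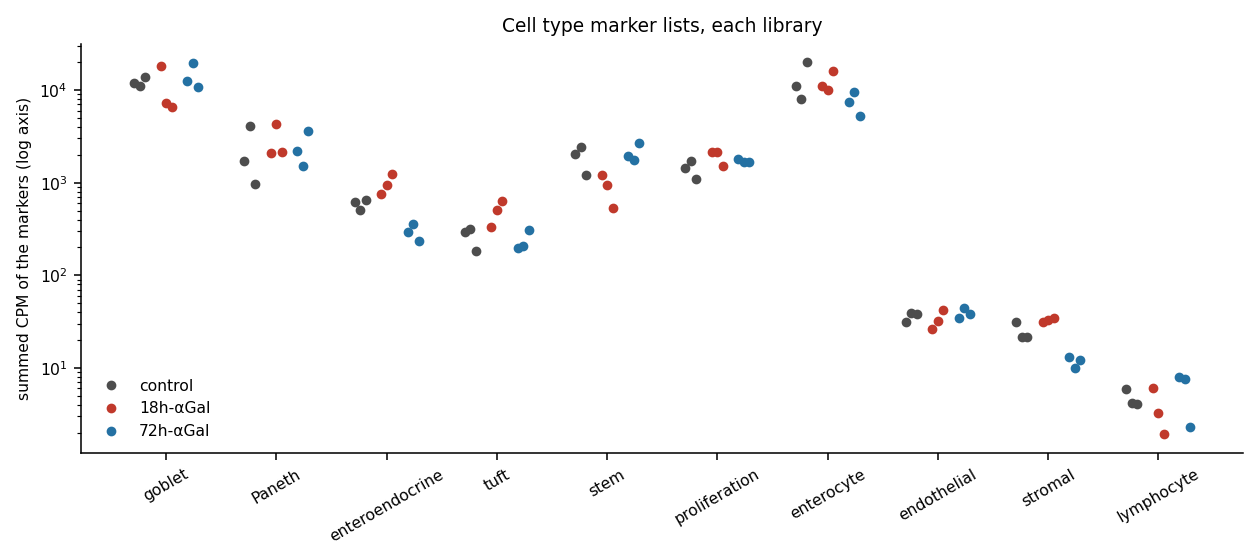
Summed CPM of each cell type marker list in each library on a log axis, with control in grey, 18h-αGal in red and 72h-αGal in blue. The stem list sits lowest in 18h-αGal (532 to 1213 CPM), the enteroendocrine list sits lowest in 72h-αGal (236 to 360 CPM), and the endothelial, stromal and lymphocyte lists stay below 45 CPM.

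The 12 stem cell markers, genes of the Lgr5+ crypt base cells in which Notch is active, summed to between 1217 and 2402 CPM in control, between 532 and 1213 CPM in 18h-αGal, and between 1774 and 2711 CPM in 72h-αGal. At 18 h, 3 of the 12 were called lower and 0 higher (median log2 fold change -1.11), and at 72 h against 18 h 4 were called higher and 0 lower (median 1.29). For this and the following lists, the shares over all tested genes at 18 h were 3.27% called higher and 2.69% called lower. At 72 h against 18 h they were 4.18% and 6.04%. The 12 enteroendocrine markers, products of an Atoh1-dependent lineage, summed to between 505 and 648 CPM in control, between 758 and 1252 CPM in 18h-αGal, and between 236 and 360 CPM in 72h-αGal, with Nts and Pyy at 0 in at least 1 library. Of them, 5 were called higher at 18 h and 8 lower at 72 h against 18 h. At 72 h against control, 4 of them were called lower, among the 5 genes called over all tested genes. The goblet sums overlapped in all 3 groups, from 6509 to 19764 CPM, with 2 of 12 markers called higher at 18 h and 1 lower at 72 h against 18 h. Paneth sums overlapped as well, from 959 to 4344 CPM, with 0 of 12 called in any comparison. Tuft sums did not overlap between 18h-αGal (335 to 630 CPM) and control (185 to 314 CPM) or 72h-αGal (195 to 311 CPM), and of 10 tested tuft markers 2 were called higher at 18 h and 5 lower at 72 h against 18 h. Enterocyte sums were 8047 to 19863 CPM in control, 10132 to 15880 CPM in 18h-αGal and 5257 to 9621 CPM in 72h-αGal. Of 12 enterocyte markers, 0 were called in any comparison. Proliferation sums overlapped in all 3 groups, from 1107 to 2156 CPM. Of 12 proliferation markers, 2 were called higher at 18 h and 1 lower at 72 h against 18 h. The 12 interferon-γ response genes, a separate list, summed to between 355 and 629 CPM in control, between 1878 and 2081 CPM in 18h-αGal, and between 323 and 491 CPM in 72h-αGal, and 10 of them were called higher at 18 h. The top control sum came from replicate 3 (629 CPM, against 355 and 370 CPM in replicates 1 and 2). How far these shifts take part in the values of Hes1 and the receptors was not tested.

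The wider Notch pathway was followed over 58 further genes, of which 52 passed the filter. Hes5, Hes7, Hes3, Hey2, Dtx1 and Dlk1 did not pass it, with no more than 89 counts each over all libraries. At 18 h, 4 of the 52 were called against control (7.69%), 2 of them higher and 2 lower, beside 3.27% and 2.69% of all genes. The median log2 fold change was -0.09 beside -0.03 for all genes. At 72 h against control 0 were called by edgeR, 4 had an unadjusted p under 0.05, beside 5.94% of all genes, and DESeq2 called 1. Between 72 h and 18 h, 7 were called (13.5%), 3 higher and 4 lower, beside 4.18% and 6.04% of all genes, with a median of -0.05 beside 0.05.

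The genes called lower at 18 h were Tle3 and Maml3. Tle3, a Groucho family co-repressor that HES proteins recruit, had 2466, 2151 and 2736 normalised counts in control, 1286, 1125 and 982 in 18h-αGal, and 2116, 2243 and 2129 in 72h-αGal. Every 18 h library was below every library of the other groups, and Tle3 fell by 1.10 on the log2 scale (± 0.13, edgeR adjusted p = 0.00025). Maml3, a Mastermind co-activator of the Notch complex, had 887, 769 and 761 in control, 290, 384 and 422 in 18h-αGal, and 652, 722 and 943 in 72h-αGal. It fell by 1.14 (± 0.19, adjusted p = 0.0029), again with no overlap with either group. Both rose between 18 h and 72 h, Tle3 by 0.94 ± 0.13 (adjusted p = 0.00064) and Maml3 by 1.09 ± 0.19 (adjusted p = 0.0024), and all of these calls held in all 15 alternatives.

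Rbpj, the DNA-binding partner of the Notch intracellular domain, had 1065, 1168 and 1013 normalised counts in control, 917, 800 and 792 in 18h-αGal, and 1205, 1063 and 1249 in 72h-αGal. All 18 h libraries were below all others, the log2 fold change at 18 h was -0.36 ± 0.14 (edgeR adjusted p = 0.135), and Rbpj rose between 18 h and 72 h by 0.49 ± 0.14 (adjusted p = 0.0326), a call lost in 6 of 15 alternatives. Of the 6 tested genes listed as targets besides Hes1, a label not checked here, none was called in any comparison by edgeR. Values at 18 h ran below 0 for Olfm4 (-1.25 ± 0.53, adjusted p = 0.245), Nrarp (-0.52 ± 0.33), Hey1 (-1.71 ± 1.07) and Hes2 (-0.26 ± 0.42), and above 0 for Hes6 (0.18 ± 0.21). Heyl had 0 counts in all 18h-αGal libraries and 72 counts in all 9 together, too few for a fold change.

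The genes called higher at 18 h were Dtx3l and Tle1. Dtx3l, an E3 ubiquitin ligase of the Deltex family that partners PARP9 and is known as interferon-inducible, had 2045, 2193 and 4664 normalised counts in control, 6828, 7330 and 7850 in 18h-αGal, and 2406, 2183 and 1601 in 72h-αGal. All 18 h libraries were above all others, and Dtx3l rose by 1.32 ± 0.30 at 18 h (edgeR adjusted p = 0.0420) and fell by 1.82 (± 0.31, adjusted p = 0.0087) between 18 h and 72 h. The first call was lost in 10 of 15 alternatives and the second in 0. Its exons overlap those of Parp9 on the opposite strand over 8% of their length. Tle1, another Groucho co-repressor, had 1171, 1301 and 1424 in control, 2187, 1800 and 1977 in 18h-αGal, and 1631, 1592 and 1442 in 72h-αGal, and rose at 18 h by 0.63 ± 0.12 (adjusted p = 0.0089), where Tle3 fell. The Tle1 call was lost in 1 of 15 alternatives, without control replicate 1 (adjusted p = 0.0566).

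Between 18 h and 72 h, the Notch ligand-like gene Dner fell by 2.73 (± 0.58, edgeR adjusted p = 0.0087). Its normalised counts were 73.4, 41.8 and 80.8 in control, 42.9, 53.9 and 89.7 in 18h-αGal, and 11.6, 12.1 and 4.42 in 72h-αGal, so that the 72 h libraries were below all others, on raw counts as low as 6. The histone deacetylase Hdac1 fell by 0.54 (± 0.14, adjusted p = 0.0218) in the same comparison, a call lost in 5 of 15 alternatives. The γ-secretase subunit Psenen fell by 0.45 (± 0.13, adjusted p = 0.0405), a call lost in 8 of 15 alternatives, and 22.9% of its exon length overlaps U2af1l4 on the opposite strand. Adam10, the metalloprotease that makes the first cut in the receptor, had log2 fold changes of 0.10 ± 0.10 at 18 h (adjusted p = 0.668) and -0.05 ± 0.10 between 18 h and 72 h (adjusted p = 0.813), within intervals from -0.13 to 0.32 and from -0.27 to 0.17. Notch3 and Jag2, with mean normalised counts from 21.5 up and from 75.8 up, had adjusted p between 0.769 and 0.989.

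**Figure D5:**
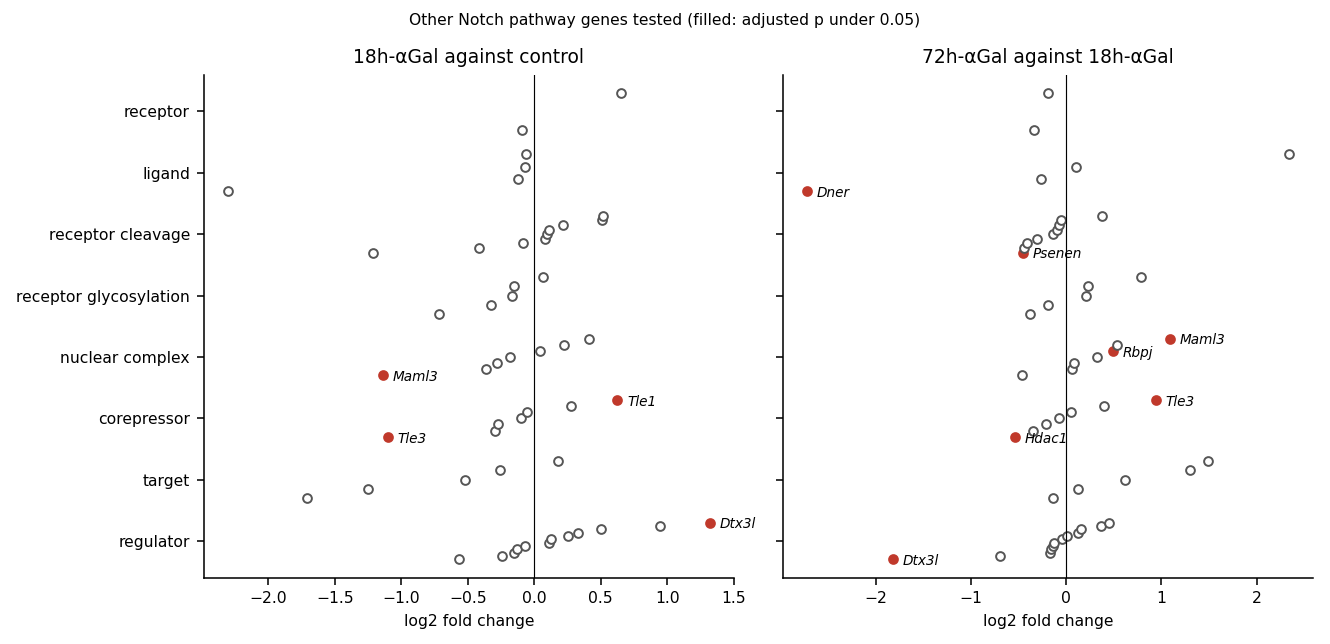
Log2 fold change of the other Notch pathway genes, 1 point a gene, by role, at 18 h against control and at 72 h against 18 h, filled red and named where the edgeR adjusted p over all genes was under 0.05. Of 52 tested genes, 4 are filled on the left and 7 on the right, with Maml3 and Tle3 below 0 on the left and above 0 on the right, and Heyl, at 0 counts in 18h-αGal, is not drawn.

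Of 25 further regulators of the secretory lineages, all tested, 0 were called at 18 h by edgeR, beside 5.96% of all genes. Without adjustment 5 had a p under 0.05, beside 20.8% of all genes, and DESeq2 called 1. At 72 h against control 1 was called, lower (4%), beside 0.0264% of all genes. At 72 h against 18 h 4 were called, all lower (16%), beside 10.2% of all genes called and 6.04% called lower. These 4 belong to the enteroendocrine path, namely Neurod1, Rfx6, Isl1 and Nkx2-2. Neurod1, which acts just after the endocrine progenitor factor Neurog3, had 882, 887 and 739 normalised counts in control, 878, 1150 and 1221 in 18h-αGal, and 356, 353 and 380 in 72h-αGal. All 72 h libraries were below all others, and Neurod1 fell by 1.57 (± 0.16, edgeR adjusted p = 7.76e-05) against 18h-αGal. Against control it fell by 1.19 (± 0.16, adjusted p = 0.0170), a call lost in 6 of 15 alternatives. Rfx6 fell by 1.03 (± 0.20, adjusted p = 0.0051), Isl1 by 1.28 (± 0.26, adjusted p = 0.0069) and Nkx2-2 by 0.99 (± 0.27, adjusted p = 0.0297) between 18 h and 72 h, beside the enteroendocrine marker sums given above. The Nkx2-2 call was lost in 7 of 15 alternatives (adjusted p up to 0.127), and those of Rfx6 and Isl1 in 0.

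Neurog3, itself a direct target of Notch repression through Hes1, had 179, 159 and 162 normalised counts in control, 253, 233 and 179 in 18h-αGal, and 139, 112 and 189 in 72h-αGal. The lowest 18 h library lay barely above the highest control library, and the log2 fold changes were 0.43 ± 0.27 at 18 h (edgeR adjusted p = 0.417) and -0.59 ± 0.27 between 18 h and 72 h (adjusted p = 0.202). Of its exon length, 41.8% overlaps Fam241b on the opposite strand. Sox9, a Wnt target of stem and Paneth cells, had 3094, 4351 and 1881 in control, 2136, 1880 and 1505 in 18h-αGal, and 2790, 3003 and 3965 in 72h-αGal, with log2 fold changes of -0.75 ± 0.29 at 18 h (adjusted p = 0.177) and 0.83 ± 0.29 between 18 h and 72 h (adjusted p = 0.114). Klf4, a goblet cell factor, had values of -0.12 ± 0.14 (adjusted p = 0.696) and 0.36 ± 0.14 (adjusted p = 0.113) in these comparisons. The tuft cell factor Pou2f3 had 0.38 ± 0.41 at 18 h and Gfi1b 0.52 ± 1.03, with adjusted p of 0.671 and 0.836. The 10 genes listed as goblet and Paneth factors, among them Gfi1b, for which this label was not checked here, had 0 calls in any comparison. Their median log2 fold changes were -0.05 at 18 h, 0.24 at 72 h and 0.38 between 18 h and 72 h. Gfi1b held their highest values at 18 h (0.52) and at 72 h against control (0.91), each with an SE of 1.03 and on raw counts from 0 to 92.

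For each of the 10 genes, the genes with the most similar pattern were looked up by Pearson correlation of log2 CPM over the 9 libraries, among up to 9708 genes with a mean log2 CPM of at least 3. These are descriptions of libraries that share 3 groups and differ in depth. For Hes1 they were Zfp36l2 (r = 0.996, Spearman rho = 1), Nhs (r = 0.986) and Zfp362 (r = 0.985). Notch1 was closest to Pabpc1 (r = 0.986), Hunk and Phlpp1, and Notch2 to Usp54 (r = 0.991), Tmem106c and Zfp146. Dll4 was closest to Gm38257 (r = 0.978), Prom1 (r = 0.978) and Sik3. For Atoh1 the closest was Gcnt3 (r = 0.945, rho = 0.800), followed by Myof and Eea1, and for Foxa3 it was Mdc1 (r = 0.978, rho = 0.850), followed by Rps18 and Mtrf1l. Spdef was closest to Cdkn2aip (r = 0.938), Gfi1 to 9330162012Rik (r = 0.967), Dll1 to Nras (r = 0.936) and Jag1 to Nat9 (r = 0.910).

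The exons of 6 of the 10 genes overlap a gene on the opposite strand, and since the strand setting of the counting was not stated, reads of such partners may be mixed. The overlap was largest for Dll1, with 27.6% of its exon length shared with Fam120b, and was 15.6% for Dll4 (Gm14207), 14% for Notch1 (0610009E02Rik), 10.3% for Gfi1 (A430072P03Rik), 2.22% for Hes1 and 1.21% for Jag1. Notch2 shared 4.8% with Gm42820 on the same strand, and Atoh1, Spdef and Foxa3 shared none with any annotated gene.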

How the data were processed

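Libraries were made from sorted crypt IECs of 9 mice, 3 per group, with ribosomal depletion and a directional kit, and read at 100 bp. The authors mapped the reads with HISAT2 and deposited a raw count per gene and library. The study's methods name the build GRCm39, whereas the submitters' processing notes name GRCm38 (mm10), featureCounts and Subread, and DESeq2 1.42.0. The annotation release and strand setting are not given in the sources used here. The authors also deposited a normalised signal, which equalled the count divided by the DESeq2 size factor of the library.

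Symbols, positions (1-based, GRCm39) and exon lengths came from GENCODE vM39, which matched 28480 of 29288 identifiers holding 98.4% of counts. Raw counts were tested with edgeR 4.0.16 in R 4.3.3 (filterByExpr, TMM, robust quasi-likelihood fit of 9 libraries in 3 groups, common dispersion 0.123). Benjamini-Hochberg adjustment ran over 18933 genes, called under 0.05. A test of single values over samples would not go below p = 0.10 (exact permutation, 3 against 3), so none was used. Totals ranged from 8887861 to 32722293 counts. A floor of 3 counts corresponds to 0.0917 to 0.338 CPM and covers counting error only. The procedure was tested on simulated data.

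The 10 genes and the lists were chosen with earlier results of these data known, and some genes and motifs are not reported here and stand in no pathway or lineage count. Named were the 10 genes, each further pathway or lineage gene called (up to 12 per comparison by p) and 9 fixed genes, among them Rbpj and Neurog3. Promoter windows came from a RefSeq table. The labels name no batch and no pairing, and same-numbered replicates are different mice. Alternatives were DESeq2 size factors, no filter, DESeq2, only the groups compared, thinned counts, a replicate block and leaving out each library. Columns of other samples did not occur in the tables.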

Additional observations from a re-analysis of the deposited data

Results flagged for a closer look

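Between 72h-αGal and 18h-αGal, 2 of the 10 regulators, 7 of 52 other Notch pathway genes and 4 of 25 other secretory regulators differed (edgeR quasi-likelihood test, adjusted p under 0.05 over all genes), beside 10.2% of all genes. Both groups were given αGalCer and differ in time of sampling, and no PBS mice were sampled at 72 h. A change in the course of the αGalCer response and a change with time of sampling alone therefore cannot be told apart. The log2 fold changes of 72h-αGal against 18h-αGal were 0.79 for Hes1 and 0.68 for Notch2 among the 10 regulators. In the wider Notch pathway they were 1.09 for Maml3, 0.94 for Tle3 and 0.49 for Rbpj, each higher at 72 h, and -2.73 for Dner, -1.82 for Dtx3l, -0.54 for Hdac1 and -0.45 for Psenen, each lower. In the enteroendocrine path they were -1.57 for Neurod1, -1.28 for Isl1, -1.03 for Rfx6 and -0.99 for Nkx2-2. Stem cell marker sums were lower in 18h-αGal (532 to 1213 CPM) than in 72h-αGal (1774 to 2711 CPM), and enteroendocrine sums higher (758 to 1252 against 236 to 360 CPM). The part of these markers in the differences was not tested.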

How the results depend on the processing

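Of the 30 values of the 10 regulators (10 genes in 3 comparisons), 21 kept their direction in all 15 alternatives, and of the 16 values of other called genes 16 kept direction and 9 kept their call. By DESeq2, calls against control at 18 h numbered 1720 genes, 1 regulator and 1 other secretory regulator, those at 72 h 31 genes and 1 other Notch gene, and those between 72 h and 18 h 4 regulators and 7 other secretory regulators. Without the filter, 1 regulator was called at 18 h and 13 genes at 72 h. With only the groups compared, 593 genes and 3 other Notch genes were called at 18 h. Thinned to the smallest library, 1 regulator was called between 72 h and 18 h, and Dll4 at 72 h against control turned to -0.0041. The cause of these differences was not tested.

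Leaving out each library in turn, calls at 18 h ran from 432 to 1556 genes, 0 to 1 regulators, 2 to 5 other Notch genes and 0 to 1 other secretory regulators. At 72 h against control they ran from 0 to 20 genes and 0 to 1 other secretory regulators. Between 72 h and 18 h they ran from 831 to 2593 genes, 1 to 4 regulators, 4 to 8 other Notch genes and 3 to 7 other secretory regulators. Direction turned for values near 0. At 18 h these were Dll1 (-0.25 to 0.011), Atoh1 (-0.19 to 0.32), Spdef (-0.33 to 0.29) and Foxa3 (-0.27 to 0.28). At 72 h against control they were Dll4 (-0.032 to 0.12), Gfi1 (-0.20 to 0.54) and Foxa3 (-0.15 to 0.20), and between 72 h and 18 h Jag1 (-0.068 to 0.16) and Foxa3 (-0.21 to 0.34).

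With the replicate number as a block, 781, 1 and 1371 genes were called at 18 h, at 72 h and between both, with 1 regulator (Hes1) called between 72 h and 18 h, 3 and 5 other Notch genes at 18 h and between 72 h and 18 h, and 0 other secretory regulators at 72 h. Deviations of libraries with the same number correlated between -0.15 and 0.11, and those with different numbers between -0.10 and 0.14. For control with 18h-αGal of the same number the range was 0.02 to 0.11. With 3 libraries per group, these values cannot decide whether the numbers pair the samples. Depth limits Gfi1, Jag2, Notch3, Dner and Gfi1b, with raw counts down to 28, 21, 7, 6 and 0, and Heyl with 72 counts in all libraries.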
